A study of Mus musculus with 12 samples.

Results

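The genes described here are 10 matrix genes of the remodelled airway wall. They were the matricellular proteins periostin (*Postn*), tenascin C (*Tnc*) and osteonectin (*Sparc*), the adhesive glycoprotein fibronectin (*Fn1*), the proteoglycans versican (*Vcan*) and lumican (*Lum*), the elastic fibre proteins elastin (*Eln*) and fibrillin-1 (*Fbn1*), and the crosslinking enzymes lysyl oxidase (*Lox*) and lysyl oxidase-like 2 (*Loxl2*). A peak was counted for a gene when the authors' annotation assigned it to that gene or when the peak had been called on that gene's identifier. By this rule 8 of the 10 genes had a peak, out of 17415 genes with a peak in either group, and 2 had none. Of all 21900 protein-coding genes of RefSeq, matched by symbol and whether or not lung transcribes them, 58.1% had a peak in either list. The 8 genes carried 27 peaks in the OVA list, which held 27292, and 25 in the PBS list, which held 26102.

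The lists come from methylated RNA immunoprecipitation sequencing (MeRIP-seq) of lung tissue from female BALB/c mice aged 6 to 8 weeks, which compared the m6A landscape of asthmatic and control lungs. The 3 mice of the OVA group were sensitized with ovalbumin in alum on days 0 and 7. They inhaled an aerosol of 3% ovalbumin for 30 min a day from day 14 to day 20. The 3 mice of the PBS group were injected with PBS alone, without alum, and inhaled PBS. Lungs were taken on day 21. RNA fragments bound by an m6A antibody (IP) were sequenced beside unselected fragments of the same RNA (input), which gave 6 IP and 6 input libraries. A peak is a stretch of exons in which IP reads exceeded input reads, and its fold enrichment is the ratio of IP to input there. The peaks were used as 1 list per group, without values of single mice, so no difference between the lists has a replicate check, and the read depth behind a peak is unknown. Whole lung was used, and a peak needs enough reads of its transcript to be called. Differences in methylation, in transcript level and in the number of cells that make the transcript therefore cannot be told apart in these lists.

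N6-methyladenosine is placed on nascent mRNA by the METTL3 and METTL14 methyltransferase complex and is read by proteins of the YTH family, which act on the splicing, decay and translation of the transcript. It is typically enriched near stop codons, in 3′UTRs and in long internal exons. In asthmatic airways, fibroblasts, myofibroblasts and smooth muscle cells lay down matrix beneath the epithelium. Periostin, which epithelial cells and fibroblasts make in response to interleukin-13, and tenascin C are known components of that thickened layer.

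The peaks of the 8 genes had a median fold enrichment of 6.36 in the OVA list, with a range of 1.61 to 20.5, and of 6.04 in the PBS list, with a range of 1.98 to 25.5. Over all peaks the median was 5.59 in OVA, with quartiles of 2.91 and 11.4, and 5.44 in PBS, with quartiles of 2.86 and 10.9. The peaks that had been called on a neighbouring gene, *Trpc4* or *Cep152*, were among the highest. With the peaks called on the matrix genes alone, 25 in OVA and 24 in PBS, the median was 4.78 in OVA and 5.55 in PBS, and 12 peaks lay above the median of all peaks in each list. By position, 6 of the 27 OVA peaks were annotated to a 5′UTR, 13 to another exon and 8 to a 3′UTR, and the 25 PBS peaks divided into 5, 14 and 6. Over all OVA peaks the shares were 11.6% for 5′UTRs, 35.7% for other exons and 52.7% for 3′UTRs, and the PBS shares were 11.4%, 35.9% and 52.7%. A peak had a counterpart when its exonic blocks shared at least 1 bp with a peak of the other list. Of the 27 OVA peaks, 6 had no PBS counterpart, beside 19.4% of all OVA peaks. They were counted for *Vcan* (3), *Postn* (2, of which 1 had been called on *Trpc4*) and *Lox* (1). All 25 PBS peaks had an OVA counterpart, whereas 14.5% of all PBS peaks had none. Where the overlap had to reach 50% of each peak, 12 of 27 peaks in OVA had no counterpart, beside 31.4% of the whole list, and 10 of 25 in PBS, beside 28.3%. All 8 genes had a peak in both lists, as did 83.0% of the 17415 genes.

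**Figure D1:**
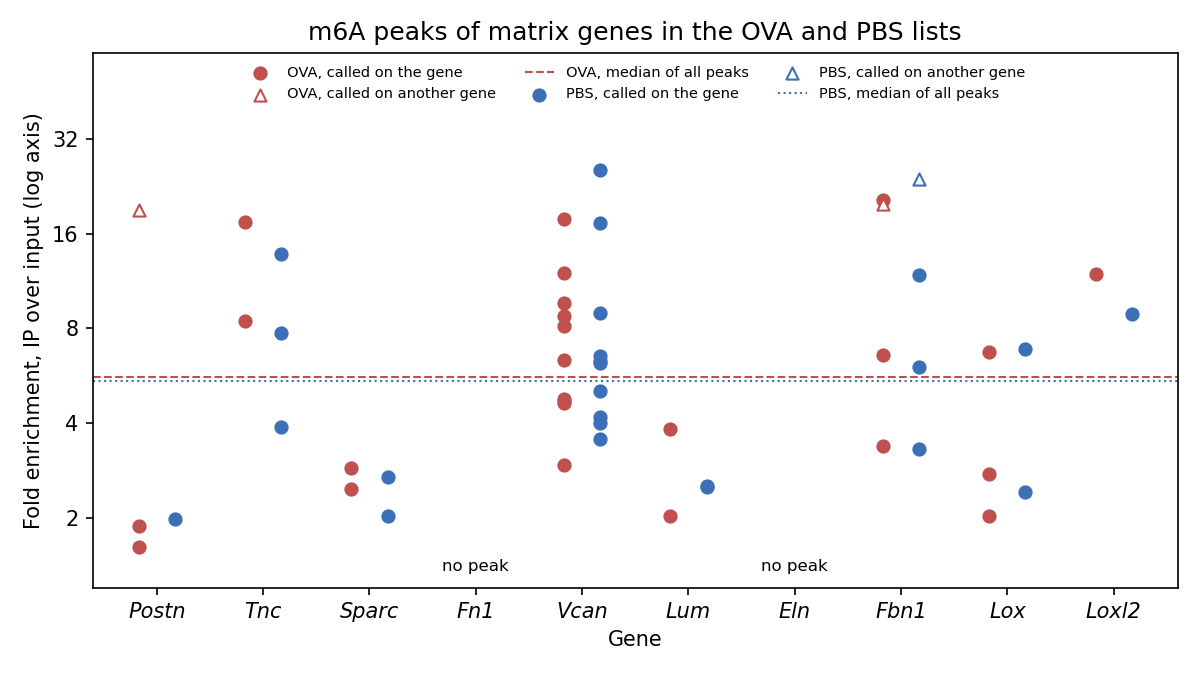
Fold enrichment (IP over input, log axis) of each peak of the 10 genes in the OVA list (red) and the PBS list (blue), with dashed and dotted lines at the medians of all OVA and all PBS peaks (5.59 and 5.44). Each symbol is 1 peak of a group's list, and open triangles are peaks called on a neighbouring gene. The *Postn*, *Sparc* and *Lum* peaks called on their own gene lay below the medians, the *Vcan* peaks spanned both sides of them, and the 2 PBS peaks of *Lum* (2.53 and 2.51) overlap in the plot.

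The 21 OVA peaks with a counterpart were compared with the PBS peak that shared the most bases with each. The OVA fold enrichment was the higher in 11 of the 21 pairs, and in 59.7% of all 22006 pairs of the lists. The OVA peak was the longer in 17 of the 21 pairs, and in 47.7% of all pairs. Its log10 p was the lower in 19 of the 21 pairs, and in 57.5% of all pairs. In these pairs the difference thus went mostly in 1 direction for length and log10 p, and in both directions for fold enrichment. They include a pair assigned to *Fbn1* but called on *Cep152* (19.9 in OVA and 23.8 in PBS). These 3 counts were chosen after the values were seen, and 7 of the 21 pairs belong to *Vcan*.

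Periostin is a secreted protein that binds integrins and collagen and is made by fibroblasts and airway epithelium in type 2 inflammation. Its 5′UTR peak, on chromosome 3 from 54361109 to 54361259 in OVA and from 54361109 to 54361229 in PBS, had a fold enrichment of 1.88 and 1.98. These values stood at percentiles 8.16 and 10.4 of their lists, so this stretch of the 5′UTR was weakly enriched in both groups. A peak near the other end of the gene, from 54390319 to 54390559, was called in OVA only. It was annotated to the 3′UTR through a retained-intron transcript and had the lowest fold enrichment of all OVA peaks of the matrix genes, 1.61, at percentile 3.83, with a log10 false discovery rate (FDR) of -79.8. The nearest PBS peak was the 5′UTR peak of *Postn*, 29089 bp away.

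The peak of highest fold enrichment that the annotation gave to *Postn* had not been called on *Postn*. It lay from 54317962 to 54318171, had a fold enrichment of 19.0 with a log10 FDR of -4.64, and was called on *Trpc4*, a cation channel gene whose RefSeq span runs from 54155584 to 54318471. The annotation placed it -42938 bp from the start of *Postn*. It had no PBS counterpart, and the PBS list held no peak called on *Trpc4*. By its position it lies in the last part of *Trpc4*, not in *Postn*. In the whole matrix set, 4 of 27 OVA peaks had been called on a gene other than the assigned one, and 3 of 25 in PBS, beside 22.5% over the whole OVA list and 22.8% over the whole PBS list.

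**Figure D2:**
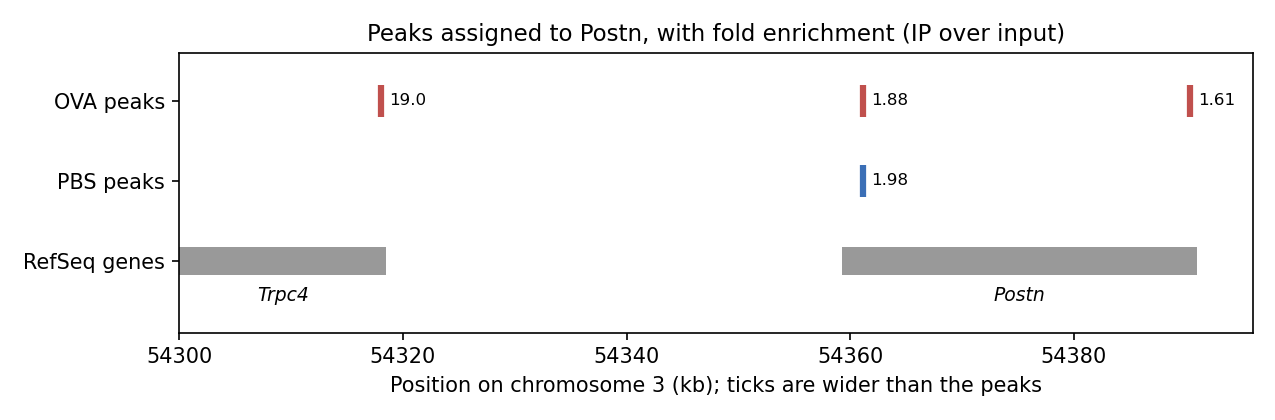
Peaks that the annotation assigned to *Postn* on chromosome 3 (position in kb), with the fold enrichment (IP over input) printed beside each tick, above the RefSeq spans of *Trpc4* (its last part) and *Postn* as grey bars. The OVA peak of 19.0 lies inside *Trpc4*, and the only position with a peak in both lists is the 5′UTR peak of *Postn* (1.88 and 1.98).

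RefSeq promoter windows, from 250 bases before to 50 bases after a transcript start, were at hand for 5 of the genes (*Postn*, *Tnc*, *Sparc*, *Vcan* and *Fbn1*). The *Postn* window at the start 54359267, where the RefSeq span of the gene begins, held no bases of a peak in either list. Among the peaks of these genes, the 5′UTR peak of *Postn* was the only one to reach a window of its gene, that of the start 54361107. The first 30 bases of the transcript that begins there are shown because the peak begins within them in both lists. They lie on the plus strand at chr3:54361107-54361136 of GRCm38.p6 in RefSeq, and capitals mark the bases inside the peak.
Postn transcript start: gcCAGATCTCTTCCTGGACGGAGCTCAGGG
None of the usual spellings of the m6A consensus that were searched, namely GGACT, the variants GGACA as well as GGACC with another last base, and the variant AGACT with another first base, was found on the transcribed strand in the 50 bases after this start. At least 1 of them was found in 19.9% of the same stretch of all 32851 RefSeq promoter windows. Of the 50 bases, 48 lay inside the peak, which covered 151 bp in OVA and 121 bp in PBS. The rest of the peak was not searched, nor were other spellings, so whether the peak holds a consensus is unknown.

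Tenascin C is a hexameric matricellular protein that is scarce in resting lung and is made anew during injury. The highest ratio of OVA to PBS among the 21 pairs lay in its exon 2 of 25, on chromosome 4. The OVA list held 1 peak there, from 64016877 to 64018192, with a fold enrichment of 17.4. The PBS list held 2 shorter peaks inside the same stretch, from 64016997 to 64017445 with a fold enrichment of 3.9 and from 64017624 to 64018013 with 7.74. The ratio of the OVA value to the PBS value was 4.46 for the first and 2.25 for the second, at percentiles 99.0 and 94.3 of the 22006 pairs, whose median ratio was 1.08 with quartiles of 0.856 and 1.36. The 3′UTR peak of *Tnc* went the other way, with 8.47 in OVA (63959785 to 63960024) and 13.8 in PBS (63959815 to 63959934), a ratio of 0.614 at percentile 10.2. Within this gene the lists thus differed in opposite directions at the 2 positions. The PBS 3′UTR peak had a log10 FDR of -2.99, the OVA peak -10.4, and the exon 2 peak of OVA a log10 p of -495.0.

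Osteonectin binds collagen and calcium and is abundant in fibroblasts and endothelium. Both lists held 2 peaks on *Sparc*, on chromosome 11, and their fold enrichments lay between 2.03 and 2.87, below the lower quartile of each list. The peak of the 5′UTR joined 2 exons, from 55409936 to 55419934 in OVA and from 55409966 to 55419934 in PBS, with 2.46 and 2.03. The neighbouring peak covered 90 bp in OVA (55409280 to 55409369, fold enrichment 2.87) and reached across an intron in PBS (55407266 to 55409369, 180 bp of exon, 2.69). *Sparc* was the only one of the 8 genes with a shorter covered length in OVA than in PBS, 299 against 359 bp.

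Fibronectin, the adhesive glycoprotein on which other matrix proteins assemble, had no peak in either list. No peak of any gene lay within the RefSeq span of *Fn1* on chromosome 1, from 71585473 to 71653280. The absence of a call says that no stretch passed the authors' caller, not that the transcript lacks m6A. Of the 8 listed receptors of fibronectin, tenascin C and periostin, all 8 had a peak in both lists. Over all RefSeq coding genes, 58.1% had a peak in either list, and 83.0% of the 17415 genes with a peak had one in both. The share of coding genes with a peak in both lists was not counted. The integrin subunit *Itgb5* had the highest fold enrichment among them, 35.6 in OVA and 30.1 in PBS, in its 3′UTR on chromosome 16 (33947847 to 33949189 in OVA). Its 5′UTR peak of 22.2 from 33829665 to 33829844 in PBS had no OVA counterpart. Of the other receptors, *Itga9* had 24.1 and 21.5, *Itga5* 19.4 and 16.9 and *Itga8* 15.0 and 14.1. The remaining 4 lay below the median of all peaks in both lists, with highest values of 2.73 and 3.41 for *Itgav*, 3.08 and 2.31 for *Itgb1*, 3.56 and 2.09 for *Itgb3* and 3.14 and 3.77 for *Sdc4*.

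Versican is a large chondroitin sulphate proteoglycan that binds hyaluronan and expands in inflamed airway walls. It had 10 peaks in each list, all called on *Vcan*, more than any other gene of the set. Of the genes with a called peak, 99.7% had fewer than *Vcan* in each list, and 0.482% in OVA and 0.456% in PBS had 9 or more. The blocks of its peaks covered 6746 bp in OVA and 2913 bp in PBS, of which 2853 bp were shared. The ratio of covered lengths was 2.32, at percentile 95.5 of the 12283 genes with a peak called in both lists, whose median ratio was 1.04 with quartiles of 0.928 and 1.22. Nearly all bases of the PBS peaks were thus also in OVA peaks, which reached further.

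Most of the added length lay in exon 8 of 15, which encodes the GAG-β region, where chondroitin sulphate chains attach. Between 89688315 and 89693501 on chromosome 13, a stretch of 5187 bp, 5 OVA peaks covered 4593 bp and 7 PBS peaks covered 2132 bp. The longest OVA peak, 2366 bp from 89688315 to 89690680, had a fold enrichment of 12.0 and overlapped 3 PBS peaks with 5.06, 3.99 and 6.23. The next, from 89690740 to 89691369, had 4.78 and no PBS counterpart, and the nearest PBS peak was 149 bp away. An OVA peak of 9.66 (89691518 to 89692207) overlapped PBS peaks of 4.19 and 6.54, and an OVA peak of 6.36 (89692387 to 89692896) a PBS peak of 3.55. The last OVA peak, with 8.12, ran from 89693105 across the splice junction to 23 bp of exon 7 that end at 89702940, and its PBS counterpart had 8.98. Paired by the largest overlap, the OVA value was the higher in 3 of 4 pairs of this exon.

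Exon 7, which encodes the GAG-α region, differed in another way. The OVA list had 3 peaks between 89704378 and 89705575, with fold enrichments of 4.7, 2.95 and 8.78, and the PBS list had 1 peak with 17.3, from 89705396 to 89705575. The OVA peaks there covered 960 bp and the PBS peak 180 bp. The peaks of 4.7 and 2.95 had no PBS counterpart, and the gap to the nearest PBS peak was 479 and 149 bp. At the overlapping position the ratio was 0.508, at percentile 6.88 of all pairs. The 3′UTR peak likewise was longer in OVA, 1049 against 420 bp, with the lower fold enrichment, 17.8 against 25.5. In the 5′UTR the values were 4.62 and 6.29. *Vcan* thus had higher OVA values at most overlapping positions of exon 8. The OVA value was lower at the 1 overlapping position of exon 7 and at that of each UTR. The log10 FDRs were -16.6 in OVA and -4.09 in PBS in exon 7, and -2.91 and -4.29 in the 5′UTR. In the 3′UTR they were -94.4 and -22.8.

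**Figure D3:**
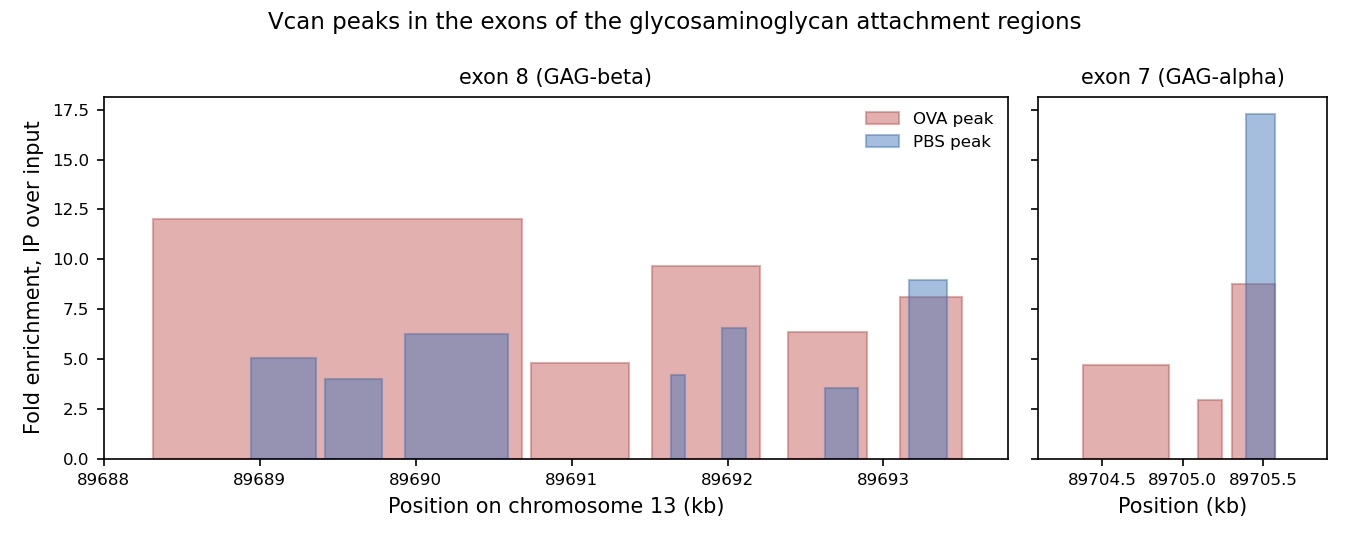
Peaks of *Vcan* in exon 8 (left) and exon 7 (right) along chromosome 13 (kb), drawn as boxes whose width is the exonic block and whose height is the fold enrichment (IP over input) of the peak, for the OVA list (red) and the PBS list (blue). The gene is read from right to left. OVA peaks cover 4593 bp and PBS peaks 2132 bp of exon 8, while the highest box is the PBS peak of 17.3 in exon 7. The 23 bp of exon 7 that belong to the OVA peak of 8.12 lie outside the panels.

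Lumican is a keratan sulphate proteoglycan that spaces collagen fibrils. Both lists held 2 peaks in exon 2 of 3 of *Lum*, on chromosome 10. The first, from 97568361 to 97568540 in OVA and to 97568570 in PBS, had 2.02 and 2.53. The second, with 3.82 in OVA and 2.51 in PBS, began at 97568839 and 97568869. The values lay between percentiles 10.6 and 36.0 of their lists, so this gene was weakly enriched at both positions.

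Among 15 other hyalectans and small leucine-rich proteoglycans, 7 genes had a peak in both lists, 2 in OVA only, 2 in PBS only and 4 in neither. For comparison, 58.1% of RefSeq coding genes had a peak in either list, and 83.0% of all genes with a peak had one in both. For *Aspn* and *Hapln1* every peak had been called on a neighbour, *Ecm2* and *Edil3*, so 5 of the 7 had peaks of their own in both lists. The 4 with no peak were *Ncan*, *Dcn*, *Kera* and *Epyc*, of which decorin (*Dcn*) is a major proteoglycan of fibroblasts. *Acan* (3.94) and *Hapln3*, a link protein gene with called peaks of 3.15 and 2.44, had a peak in OVA only, while *Bcan* (3.74) and *Ogn* (1.47) had a peak in PBS only. The *Acan* peak and the *Hapln3* peak of 2.44 had log10 FDRs of -1.26 and -1.24, the least certain of these calls. A further OVA peak assigned to *Hapln3*, with 1.83 and a log10 FDR of -94.0, had been called on *Mfge8* and had a counterpart in PBS. Biglycan (*Bgn*) had the lowest fold enrichments among those 5 genes, 1.36 in OVA and 1.29 in PBS. *Omd* (10.6 and 19.3) and *Podn* (5.45 and 14.1) had the higher value in PBS, and *Fmod* (5.6 and 5.15) and *Prelp* (5.71 and 4.5) in OVA.

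Elastin, the core protein of elastic fibres, had no peak in either list, and no peak of any gene lay in the RefSeq span of *Eln* on chromosome 5, from 134702595 to 134747368. Fibrillin-1 forms the microfibrils on which elastin is deposited and which hold latent TGF-β. Its 3′UTR peak on chromosome 2 ran from 125300654 to 125301882 in OVA and from 125300714 in PBS, with fold enrichments of 6.57 and 6.04. The annotation assigned it to the lincRNA gene *Gm14003*, -17904 bp from its start, although it had been called on *Fbn1* and lies inside the RefSeq span of *Fbn1* (125300594 to 125506485).

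The 5′ peaks of *Fbn1* lay from 125505657 to 125505897 in OVA and to 125505927 in PBS, with 3.39 and 3.32, and from 125507514 to 125507813 in OVA and from 125507694 to 125507843 in PBS, with 20.5 and 11.8. The second pair lay beyond the RefSeq span of *Fbn1*, which ends at 125506485, although the authors' annotation put it in a 5′UTR of this gene. It had the highest OVA value of the matrix set and a ratio of 1.74, at percentile 88.8 of all pairs, and log10 FDRs of -5.14 and -2.38. Each of these peaks was listed again, at nearly the same positions, on the antisense gene *Gm9913*, with 3.22 and 11.4 in PBS and, for the first, 3.31 in OVA. The second had a log10 FDR of -4.97 there in OVA. Of all peaks, 9.51% in OVA and 9.46% in PBS overlapped a peak of another gene in the same list. Signal of *Fbn1* and of its antisense partner cannot be told apart here. A peak assigned to *Fbn1* from 125563327 to 125564253 in OVA and to 125564223 in PBS, with 19.9 and 23.8, had been called on *Cep152*, a centrosome gene whose RefSeq span runs from 125549864 to 125625174, and lies in that gene.

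Of 18 other genes of elastic fibres and crosslinking, 13 had a peak in both lists, 1 in OVA only and 4 in neither, where 58.1% of RefSeq coding genes had a peak in either list. The 4 were *Fbln1*, *Mfap2*, *Mfap5* and *Ltbp4*. *Efemp2*, whose product fibulin-4 brings lysyl oxidase to tropoelastin, had an OVA peak of 1.94 with a log10 FDR of -1.79. *Fbn2*, the fibrillin of the developing lung, had the highest values of these genes, 34.9 in OVA and 37.0 in PBS, in its 3′UTR on chromosome 18 (58010151 to 58010391 in OVA). *Emilin1*, a glycoprotein at the surface of elastic fibres, followed with 24.6 and 21.7.

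Lysyl oxidase oxidizes lysines of collagen and elastin, the first step of crosslinking. Its 3′UTR peak on chromosome 18, from 52518873 to 52520851 in OVA and to 52520822 in PBS, had 6.71 and 6.88. A peak in exon 1 of 7, from 52528785 to 52529054 in OVA and from 52528815 to 52529024 in PBS, had 2.02 and 2.42. A further peak was called in OVA only. It was annotated to the 5′UTR, lay from 52529532 to 52529867, where the RefSeq span of *Lox* ends, and had a fold enrichment of 2.75 with a log10 FDR of -8.69. The nearest PBS peak was the exon 1 peak, 507 bp away.

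Lysyl oxidase-like 2, a collagen crosslinker of fibrotic tissue, had 1 peak in each list. On chromosome 14 it ran from 69692354 to 69693625 in OVA and from 69692384 in PBS, in the 3′UTR, with fold enrichments of 11.9 and 8.88 and a ratio of 1.34 at percentile 73.4. It had been called on *Loxl2*, but the annotation assigned it to *Mir6950*, a miRNA gene within *Loxl2*, whose RefSeq span from 69692248 to 69692320 ends before the peak begins. The related oxidases had higher OVA values in *Loxl3* (12.9 and 8.13) and *Loxl4* (13.7 and 5.26) and a lower one in *Loxl1* (11.9 and 13.6).

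Of 17 other matricellular genes, 11 had a peak in both lists and 6 in neither, where 58.1% of RefSeq coding genes had a peak in either list. The 6 were *Thbs3*, *Thbs4*, *Spp1*, *Tnn*, *Tnr* and *Nov*. Among the 11, the highest fold enrichments were those of *Tnxb* (22.5 in OVA and 16.4 in PBS) and *Wisp1* (21.8 and 15.1). Thrombospondin genes *Thbs1* and *Thbs2* had 9.05 and 8.95 in OVA and 7.38 and 3.21 in PBS as their highest values. *Tgfbi*, the closest relative of *Postn*, had 8.02 and 7.45, above the 5′UTR peak of *Postn*. *Smoc1* (3.29 and 6.0) and *Wisp2* (4.74 and 5.71) had the higher value in PBS. The highest value was thus higher in OVA for 9 of the 11 genes. It was so for 6 of 8 receptors, 3 of the 5 proteoglycan genes and 6 of the 13 elastic fibre genes, and for 60.3% of the 12283 genes with a peak called in both lists.

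Marker genes were read by whether a peak had been called or assigned, which is not a measure of expression. For comparison with the counts below, 58.1% of RefSeq coding genes had a peak in either list. Of 10 lung epithelial genes, 9 had a peak in both lists, and the surfactant gene *Sftpc* had none. Of 10 fibroblast and smooth muscle genes, 8 had a peak in OVA and 8 in PBS. *Acta2* had none in either list, *Tagln* only an OVA peak (1.27) and *Cnn1* only a PBS peak (1.36). For those with a peak in both lists, the highest value of each list was taken, from called or assigned peaks. These values were not paired by position, so they can belong to different stretches. Among them, *Pdgfrb*, with 1 OVA peak and 2 PBS peaks, had the highest value and the widest gap, 42.1 in OVA and 11.9 in PBS. *Pdgfra* had 19.1 and 18.3, *Tcf21* 17.1 and 13.7, *Col1a1* 11.9 and 11.6, *Col1a2* 6.07 and 6.3, *Col3a1* 4.06 and 4.98 and *Myh11* 2.2 and 2.7. Of 5 cartilage genes, 2 had an OVA peak and 1 a PBS peak. *Col2a1*, *Matn1* and *Comp* had none, and *Acan* had a peak in OVA only (3.94). *Sox9*, which lung epithelium also expresses, had 30.7 in OVA and 38.5 in PBS. Of the lung epithelial, fibroblast and smooth muscle markers, *Sftpc* and *Acta2* had no peak in either list, like *Fn1* and *Eln*. All the others had a peak in at least 1 list. The lists do not give the level of any of these transcripts, and the reason for the lack of a peak was not tested.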

How the data were processed

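MeRIP-seq was done on lungs of 3 mice per group, with an IP and an input library for each mouse. The authors used FASTP for cleaning, HISAT2 for mapping to Ensembl's mouse genome, exomePeak for calling peaks and ChIPseeker for their annotation. How the mice of a group were combined is not given in the sources used here. The deposited fold enrichment is the authors' ratio of IP to input. Each peak also has a deposited score from the authors' caller, given as log10 p and log10 FDR. Of the peaks called on RefSeq coding genes, 95.2% (OVA) and 95.1% (PBS) overlapped that gene on GRCm38.p6, which was taken as the build. Deposited starts were read as counted from 0. On the plus strand, 442 OVA and 422 PBS starts lay 1 below the assigned transcript's start, and 16 and 17 lay on it. Positions are given counted from 1, and distances to a start as deposited.

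Peaks were compared by overlap of exonic blocks, at least 1 bp. Where several overlapped, the largest overlap was used, then the same called gene. Percentiles are among all peaks or pairs of the lists. No test was made, since each group has 1 list. The authors' own comparison of peaks and expression between the groups was not used here. The alternatives were an FDR under 0.05, a fold enrichment of at least 2, membership by called gene or assigned gene alone, overlap of genomic spans, 50% of both peaks, and the same called gene. All 10 genes are named, and of the related lists the genes with a peak in 1 list only and the 3 highest peaks of each list. Other genes of the related and marker lists were named after their values were seen. The members and lists were chosen with earlier results of these data known. Without a genome, motifs were searched only in the 50 bases after 1 start of *Postn*, most of which lie in a peak. The rest of that peak and the other peaks were not searched. Python 3.11.15, numpy 2.4.6, pandas 2.3.3 and matplotlib 3.10.9 were used. The overlap code was tested on simulated data.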

Additional observations from a re-analysis of the deposited data

How the results depend on the processing

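The number of peaks lay between 25 and 27 in OVA and between 23 and 25 in PBS, and 7 or 8 genes had a peak in both lists. When the overlap had to reach 50% of each peak, 15 of 27 peaks in OVA and 15 of 25 in PBS had a counterpart, and those without numbered 12 instead of 6 in OVA and 10 instead of 0 in PBS. The cause was not tested. Membership by called gene alone gave median fold enrichments of 4.78 in OVA and 5.55 in PBS, in place of 6.36 and 6.04. The counts of peaks without a counterpart and these medians were added after seeing the data. All other counts under another setting were equal to the reported count or within 1.5 times of it. No paired analysis was possible because each group has 1 list, without values of single mice. For the same reason no mouse could be left out. Read numbers per peak are unknown, so no fold enrichment has an interval.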
